A study of Mus musculus with 24 samples.

Results

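The collagen chain genes encode the alpha chains of collagen. They were taken here as the genes whose symbol is Col, a number, the letter a and a number, and nothing more. The expression table held 42 such genes among 21553 with counts, and 36 of them reached at least 1 CPM (counts scaled to the library total) in 3 or more of the 24 libraries. The 36 genes are described below, and the other 6 are listed with their levels. Collagen is made as chains that wind by threes into a stiff triple helix, and the chains of a type differ in what they build after secretion. Fibrillar chains form banded fibrils, FACIT chains sit on the surface of fibrils, the type IV chains form the network of basement membranes, type VI chains form beaded filaments, and a few chains stay anchored in the plasma membrane. In the nervous system collagen is mostly laid down by the meninges, by vessels and by other cells around the neural tissue, while neural epithelium rests on a basement membrane rich in type IV and type XVIII collagen.

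The libraries came from mouse embryonic stem cells (ESCs) kept in 2i medium with LIF, from neural precursor cells (NPCs) at day 7 of culture without these factors, from cells purified at day 10 with beads against PSA-NCAM, a surface mark of young neural cells (PSA-NCAM+ cells), and from mature neurons, replated at day 7 on ornithine and laminin and grown for 14 more days with ascorbic acid and cAMP. Each stage was sampled from wild-type (WT, wt/wt) cells and from slow/slow cells, which carry the Polr2a R749H substitution, a change in the catalytic subunit of RNA polymerase II, on both alleles. Each of the 8 groups had 3 libraries. For ESCs, NPCs and neurons the study's methods describe them as independent differentiation experiments, and for PSA-NCAM+ cells no such statement was found, so that p-values there measure the spread between these libraries, which may be technical. The slow/slow cells are a line derived from the WT line by successive gene targeting, so each genotype is a single ESC line. They were plated for differentiation at 30000 cells per cm2 and the WT cells at 10000, so that genotype and plating density cannot be told apart after the ESC stage. Neurons were fed ascorbic acid, a cofactor of the enzymes that hydroxylate collagen, in both genotypes alike.

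Library totals lay between 32974432 and 104466886 counts, and no pair of libraries held identical values. The table holds no base calls, so the substitution itself was not checked here. Transcripts of Polr2a did not pass the test between genotypes in ESCs, NPCs or PSA-NCAM+ cells and were lower in slow/slow neurons, at 168 against 323 CPM on average (log2 change -0.94, FDR 7.76e-05). The stage labels were checked with marker lists. The summed level of 4 pluripotency genes was 4236 to 4776 CPM in ESCs and 69.1 to 119.8 CPM in neurons. Of 6 neuronal genes it was 2380 to 3483 CPM in neurons and at most 341 CPM at any earlier stage, PSA-NCAM+ cells included, in which the pluripotency genes still summed to 445 to 1588 CPM. The 3 neural progenitor genes in the table, of 4 on the list, summed to 284 to 301 CPM in WT NPCs, below the 364 to 380.0 CPM of WT ESCs, and to 335 to 368 CPM in slow/slow NPCs, above the 316 to 328 CPM of slow/slow ESCs. Sox2 made up most of each sum and fell in both genotypes (355 to 251 and 295 to 212 CPM on average). Pax6 rose from 0.173 to 4.48 CPM in WT and from 0.88 to 41.3 CPM in slow/slow cells. Nes rose from 17.3 to 34.5 and from 27.5 to 94.1 CPM. The 5 astrocyte and radial glia genes summed to 737 to 963 CPM in neurons and at most 67.8 CPM before.

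ESCs held little collagen RNA and the neural cultures held much more. The 36 genes summed to 222 ± 5.18 CPM (SD, n = 3) in WT ESCs, 3643 ± 301 CPM in WT NPCs, 4126 ± 898 CPM in WT PSA-NCAM+ cells and 1583 ± 197 CPM in WT neurons. The sums in slow/slow cells were 202 ± 11, 3284 ± 402, 4904 ± 2661 and 2729 ± 341 CPM. Slow/slow neurons lay at 2402 to 3082 CPM and WT neurons at 1368 to 1755 CPM, with no overlap. ESCs did not overlap either and ran the other way, at 190.0 to 212 CPM in slow/slow and 217 to 227 CPM in WT libraries. The genotypes overlapped at the NPC and PSA-NCAM+ stages. At the PSA-NCAM+ stage the slow/slow libraries ran from 3115 to 7962 CPM, and the highest was replicate 1. With bulk RNA, more cells of a type that makes collagen and more collagen RNA in each cell cannot be told apart.

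**Figure D1:**
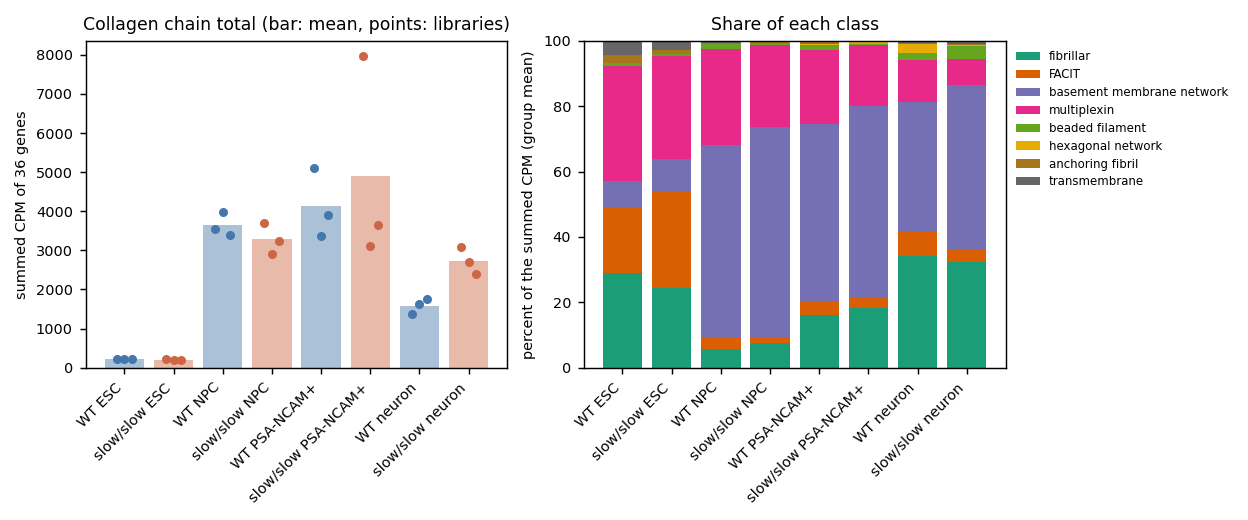
Left, summed CPM of the 36 collagen chain genes in each of the 8 groups (bars, means; points, the 3 libraries). Right, the percent of that sum that falls to each structural class (group means). The type IV class holds 8.14% of the sum in WT ESCs and 58.5% in WT NPCs, and slow/slow neurons lie above WT neurons in every library.

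Compared per length, by the authors' mean RPKM, a handful of genes held the top places. In WT ESCs these were Col18a1 (16.4 RPKM), which gives the proteoglycan-like chain from which endostatin is cut, Col9a2 (10.7 RPKM), a FACIT chain best known from cartilage, and Col5a1 (4.02 RPKM), a chain that sets fibril diameter. In WT NPCs they were Col18a1 (227 RPKM) and the main basement membrane chains Col4a1 (208 RPKM) and Col4a2 (118 RPKM). The same genes led in WT PSA-NCAM+ cells, at 186, 208 and 138 RPKM. In WT neurons Col4a1 (52.5 RPKM) and Col18a1 (42.6 RPKM) were followed by Col3a1 (37.1 RPKM), a fibrillar chain of soft connective tissue. By class, the type IV chains took 8.14% of the summed CPM in WT ESCs, 58.5% in WT NPCs, 54.4% in WT PSA-NCAM+ cells and 39.9% in WT neurons, and the fibrillar chains 29%, 5.84%, 16% and 34.1%.

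The genes close to the limit of 1 CPM show what the rule took in. Just inside it were Col25a1, Col6a4 and Col6a6, whose third-highest libraries held 1.41, 2.52 and 2.91 CPM. Just outside were Col24a1, Col4a4 and Col4a3, at 0.819, 0.713 and 0.372 CPM. Col19a1, Col28a1 and Col10a1, the last a marker of hypertrophic cartilage, reached 0.427, 0.420 and 0.168 CPM in their highest library. The 36 genes comprised 10 of 11 fibrillar, 8 of 9 FACIT, 4 of 6 type IV, 5 of 5 type VI and 4 of 4 transmembrane chains, both multiplexins, 2 of 3 hexagonal network chains and Col7a1, the anchoring fibril chain. Col6a6 reached 1 CPM in slow/slow neurons alone, and Col9a1, Col15a1 and Col25a1 in neurons of both genotypes alone, so that their place among the genes that rose from NPCs to neurons is set by the rule. All 36 genes also passed the filter on low counts of the test. By the GENCODE annotation of GRCm38, their spans ran from 15.9 kb (Col9a2) to 468 kb (Col25a1). Col18a1 overlaps Slc19a1 and Col9a3 overlaps Tcfl5 on the other strand. The sources used here do not say whether counting used the strand, so the counts of both genes are uncertain.

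The steps of differentiation were compared first. From WT ESCs to NPCs 31 of the 36 genes rose and 0 fell at an FDR (edgeR's adjusted p-value) under 0.05, a threshold that 65.6% of the 16627 genes tested passed, 34% upward and 31.6% downward. Their median log2 change was 1.87, beside 0.03 over all genes. Of those that rose, Col1a2, Col3a1, Col4a5, Col4a6, Col6a1, Col6a2, Col6a4, Col8a1, Col8a2, Col12a1, Col15a1 and Col25a1 reached 1 CPM in no ESC library. They were taken in through later stages, so that their rise, the count and the median are partly set by the rule. All 4 type IV chains rose. Levels of single genes are given as CPM scaled by TMM, edgeR's correction for library composition, and changes as log2 with their standard error (SE). Col4a1 went from 10.6, 10.6 and 10.2 CPM in the 3 WT ESC libraries to 1256, 1468 and 1206 CPM in WT NPCs, a log2 change of 6.97 ± 0.41 (SE, FDR 1.40e-11). Col8a2, a chain of the hexagonal network under corneal endothelium, rose by 5.57 and Col12a1, a FACIT chain of tendon and fascia, by 6.40. Col6a3, Col14a1, Col9a1, Col5a2 and Col6a6 did not pass, with log2 changes of 0.71, 0.18, 0.75, 1.55 and 1.15. Slow/slow cells gave 28 genes that rose and 2 that fell, where 62.3% of all genes passed, 33.9% upward and 28.4% downward. The same limit holds for the 28, with Col6a3, Col6a6 and Col9a1 in place of Col15a1. The genes that fell were Col9a2 (-2.49 ± 0.39 SE, FDR 1.23e-05) and Col13a1 (-1.24 ± 0.20 SE, FDR 1.54e-05), a membrane-anchored chain. The comparisons of steps share their NPC libraries.

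From NPCs to WT PSA-NCAM+ cells 15 of the 36 genes rose and 4 fell, where 41.3% of all genes passed, 21.8% upward and 19.5% downward. Of the 10 fibrillar chains 8 rose. Col3a1 rose from 4.43, 3.44 and 2.47 to 45.4, 43.8 and 53 CPM, a log2 change of 3.79 ± 0.18 (SE, FDR 1.78e-11). In slow/slow cells 16 rose and 7 fell, beside 42.3% of all genes, 22.5% upward and 19.8% downward, and again 8 of 10 fibrillar chains rose. From NPCs to WT neurons 17 rose and 15 fell, where 80.2% of all genes passed, 41.4% upward and 38.9% downward, and the median change of the 36 genes was -0.40. Of the 5 type VI chains 3 fell and Col6a3 rose by 4.72. In slow/slow cells the same step gave 24 that rose and 7 that fell, where 75% of all genes passed, 38.4% upward and 36.6% downward, with a median of 1.74. Of the type VI chains 4 rose there and Col6a4 fell. The 17 and the 24 both include Col9a1, Col15a1 and Col25a1, and the 24 and the 4 include Col6a6, whose rise is set by the rule. Col6a3 and Col14a1, which rose in both genotypes, also reached 1 CPM in no NPC library. Col3a1 reached its highest level in neurons of both genotypes, and Col5a3 fell in both, with log2 changes of -3.93 in WT and -2.01 in slow/slow cells.

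The genotypes were then compared within each stage. Among ESCs 17 of the 36 genes passed, of which 3 stood higher and 14 lower in the slow/slow line. Of all genes tested 40.4% passed, 18.5% as higher and 21.9% as lower. Among NPCs 21 passed, 5 as higher and 16 as lower, beside 56.7% of all genes, 29.3% as higher and 27.4% as lower. The 58.3% of collagen genes that passed there is close to that background. Among PSA-NCAM+ cells 24 passed, 6 as higher and 18 as lower, beside 56.7% of all genes, 28.6% as higher and 28.1% as lower. Among neurons 23 passed, 19 as higher and 4 as lower, beside 51.9% of all genes, 23.4% as higher and 28.4% as lower. One of the 19, Col6a6, was taken in through the slow/slow neuron libraries alone. The median log2 change over the 36 genes was -0.46, -0.57, -0.62 and 0.53 at the 4 stages in turn, and over all genes -0.02, 0.01, -0.01 and -0.06. Col18a1 passed at no stage and Col17a1 was lower at all 4. Of the 36 genes 15 were called higher at a stage and lower at another, and 7 were lower in NPCs and PSA-NCAM+ cells and higher in neurons: Col1a1, Col5a3, Col6a1, Col6a2, Col9a3, Col16a1 and Col23a1. These counts are descriptive, since the stages share differentiation lines and the tests share their estimate of spread. How many of all genes show such patterns was not counted, so the patterns are not read as a trait of collagen genes.

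**Figure D2:**
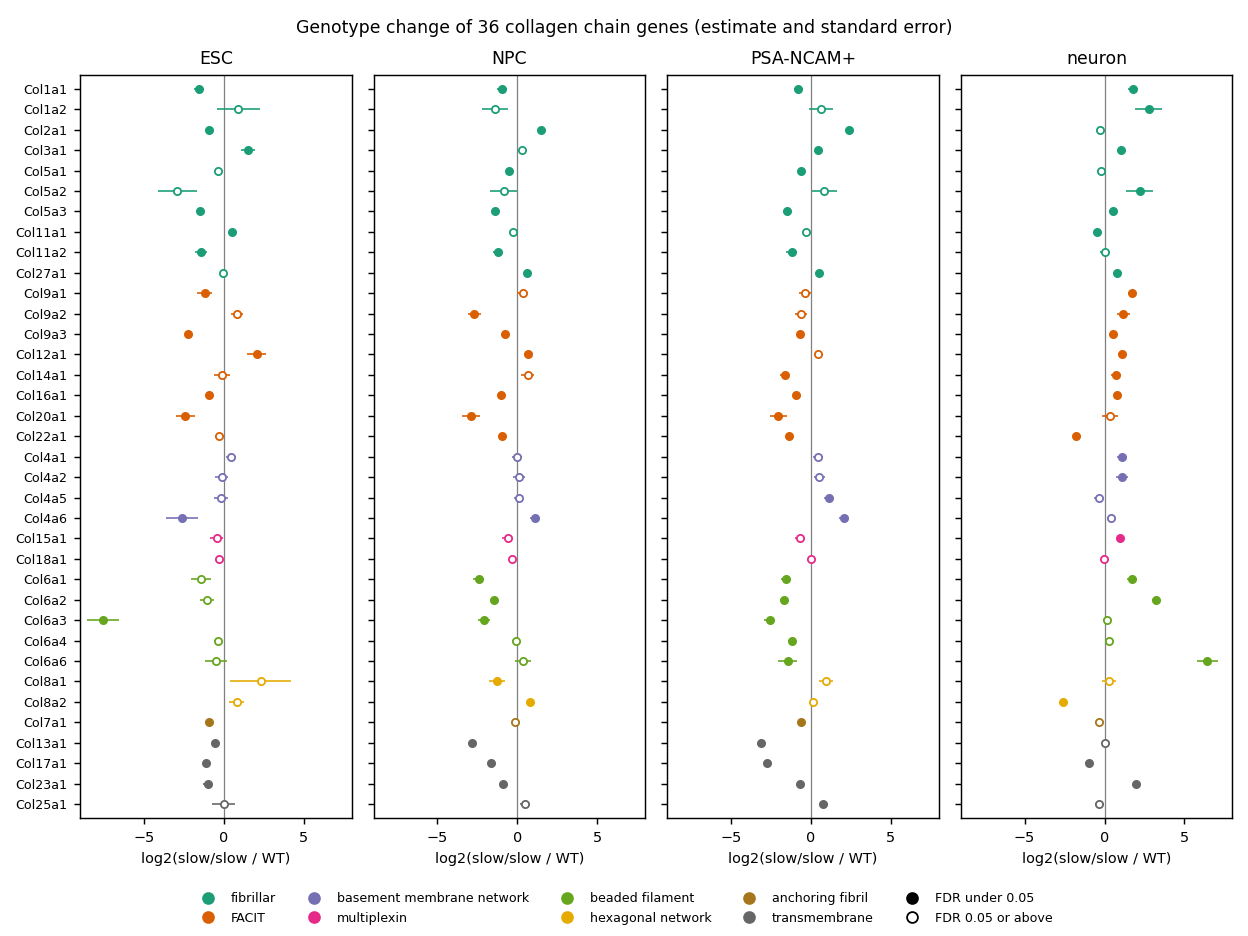
Log2 change of slow/slow over WT cells for each of the 36 genes (rows, by class) at the 4 stages, as estimate and standard error. Filled points have an FDR under 0.05. In NPCs and PSA-NCAM+ cells most filled points lie left of 0 (16 of 21 and 18 of 24), and in neurons most lie right of it (19 of 23). Col6a3 in ESCs rests on libraries with 0 counts.

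In neurons 6 of the 10 fibrillar chains stood higher in slow/slow cells, those of ordinary connective tissue among them. The 2 chains of type I collagen, the bulk collagen of bone and skin, lie on different chromosomes and were both higher. Col1a2 (GRCm38 chr6:4504814-4541544) stood at 6.03, 5.14 and 6.34 CPM in the WT libraries and 37.2, 37.6 and 44.4 CPM in the slow/slow libraries, a log2 change of 2.76 ± 0.83 (SE, FDR 0.0084). Col1a1 (chr11:94936224-94953042) went from 14.3, 15.1 and 21.5 to 58.3, 56.7 and 56.7 CPM, a change of 1.75 ± 0.29 (SE, FDR 4.61e-05). The genotypes did not overlap for either chain. Col3a1 went from 185, 199.9 and 230.3 to 429, 413 and 440.3 CPM (1.06 ± 0.15 SE, FDR 8.52e-06). Col5a2, which copolymerises with type I collagen and lies tail to tail with Col3a1, 24.6 kb away, went from 2.04, 2.05 and 3.07 to 11.9, 9.36 and 11.6 CPM (2.19 ± 0.84 SE, FDR 0.0344). The call on Col5a2 was lost when any 1 library but slow/slow replicate 2 was left out, with log2 changes of 2.08 to 2.41 and an FDR of up to 0.0975. Of the 10 fibrillar chains 6 were higher in all, with Col5a3 and Col27a1 the others, and Col11a1 was lower (-0.46). Col2a1, Col5a1 and Col11a2 did not pass, at -0.31, -0.24 and 0.03.

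**Figure D3:**
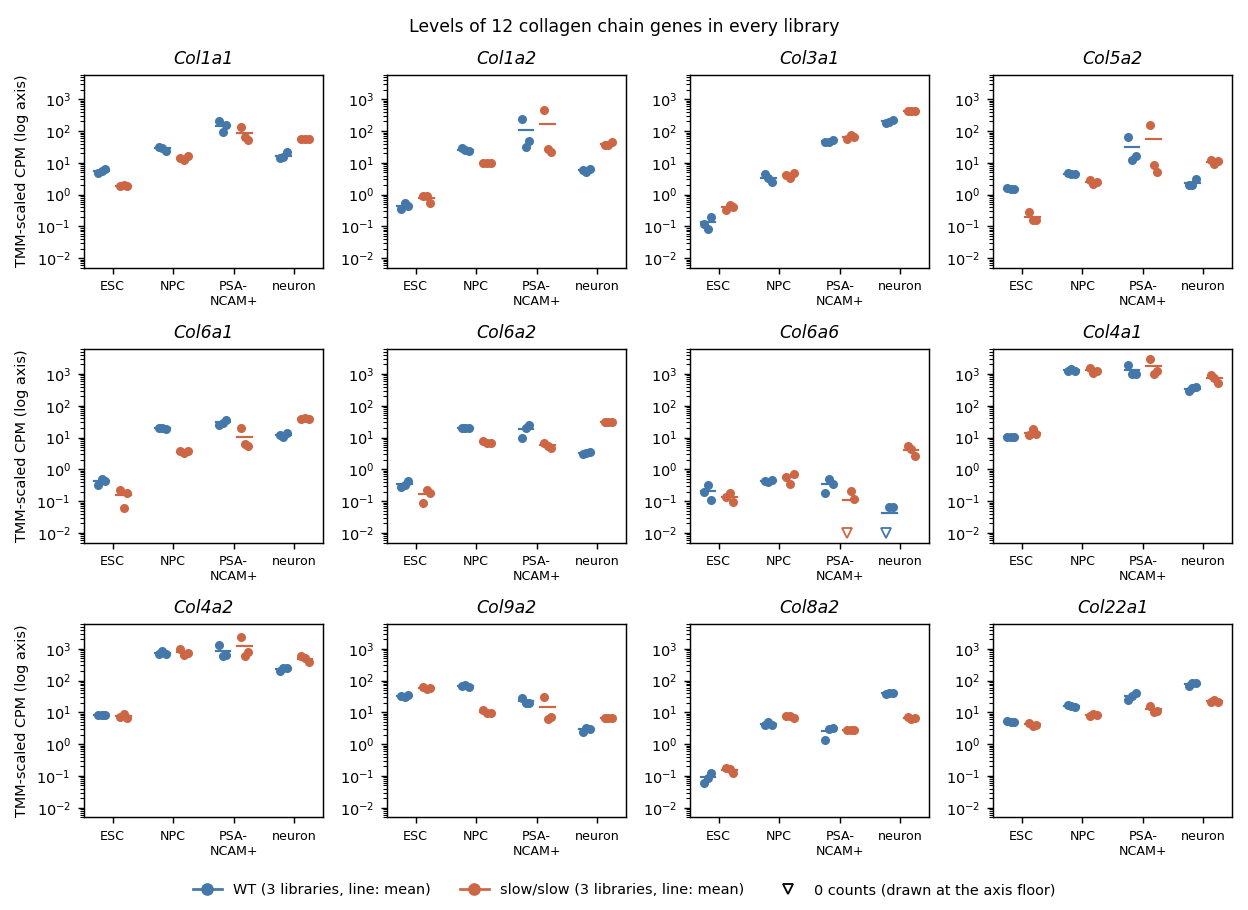
TMM-scaled CPM of 12 collagen chain genes in every library, on a log axis, for WT and slow/slow cells at the 4 stages (points, libraries; short lines, means; open triangles, libraries with 0 counts). Col6a2 lies at 2.99 to 3.64 CPM in WT neurons and at 30.8 to 31.0 CPM in slow/slow neurons, and replicate 1 of both genotypes stands above the other PSA-NCAM+ libraries for Col1a2 and Col5a2.

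Apart from Col6a6, the type VI chain of Col6a2 had the largest fitted increase of the 36 genes in slow/slow neurons. Type VI collagen is built of 3 different chains, classically those of Col6a1, Col6a2 and Col6a3, the last of which can be replaced by later-found chains such as that of Col6a6. Col6a2 (chr10:76595762-76623630) stood at 2.99, 3.16 and 3.64 CPM in WT and 31, 30.9 and 30.8 CPM in slow/slow neurons, a log2 change of 3.24 ± 0.25 (SE, FDR 2.63e-09). Its neighbour Col6a1 (chr10:76708792-76726168), on the same strand 85.2 kb away, went from 11.7, 10.7 and 13.6 to 39.7, 40.9 and 38.8 CPM (1.73 ± 0.32 SE, FDR 1.58e-04). Col6a6 (chr9:105687809-105828160) had 0, 4 and 7 counts in the WT libraries and 370, 356 and 96 in the slow/slow libraries. The ratio of the summed shares was 103, with an exact 95% interval for counting error of 57.2 to 207. Col6a6 reached 1 CPM in these 3 slow/slow libraries and in no other, and so was taken in through the group where it is high. Its difference in neurons is thus set by the rule and is given as a description, with no test. Col6a3 and Col6a4 did not pass, at 0.16 ± 0.26 and 0.26 ± 0.26. Col6a3 stood at 15.9, 14.9 and 18.9 CPM in WT and 20.9, 16.3 and 18.3 CPM in slow/slow neurons, so the genotypes overlapped for this chain and not for its partners.

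The stretches just upstream of these genes are shown because Col6a2, Col6a6 and Col1a2 show the widest gaps between genotypes in neurons, that of Col6a6 being set by the rule, and Col6a1 is the partner of Col6a2. They are RefSeq sequences of GRCm38.p6 in the gene's direction, limited to bases outside exons (the RefSeq start of Col1a2 lies within the longer GENCODE span), and capitals mark GGGCGG or its reverse complement, a GC box.
Col6a1 (chr10:76726169-76726294, minus strand): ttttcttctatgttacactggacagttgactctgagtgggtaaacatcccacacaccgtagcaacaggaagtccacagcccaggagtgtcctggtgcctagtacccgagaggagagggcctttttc
Col6a2 (chr10:76623631-76623880, minus strand): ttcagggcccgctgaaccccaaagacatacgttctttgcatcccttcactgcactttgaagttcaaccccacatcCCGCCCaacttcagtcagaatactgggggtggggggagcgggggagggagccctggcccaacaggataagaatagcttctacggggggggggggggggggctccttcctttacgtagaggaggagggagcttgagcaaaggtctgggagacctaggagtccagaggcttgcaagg
Col6a6 (chr9:105828161-105828335, minus strand): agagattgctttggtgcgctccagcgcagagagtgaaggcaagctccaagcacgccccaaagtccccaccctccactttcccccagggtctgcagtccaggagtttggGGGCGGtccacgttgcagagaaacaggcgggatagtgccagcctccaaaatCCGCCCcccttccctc
Col1a2 (chr6:4505370-4505492, plus strand): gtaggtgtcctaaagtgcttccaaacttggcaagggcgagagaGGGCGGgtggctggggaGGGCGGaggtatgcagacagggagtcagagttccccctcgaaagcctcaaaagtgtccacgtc
The stretch of Col6a1 held no match, that of Col6a2 1 on the opposite strand, that of Col6a6 1 on each strand and that of Col1a2 2 on its own strand. Over whole windows from 250 bases before to 50 after a start, read on both strands, GGGCGG was found in 22 of 32 windows of 29 collagen genes (68.8%) and in 35.7% of all 32851 windows. CCAAT was in 13 of the 32 (40.6%, against 37.4% of all) and TATAAA in 4 (12.5%, against 13.6%). The other 7 collagen genes had no window.

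Chains of basement membranes also stood higher in slow/slow neurons. Col4a1 (chr8:11198423-11312826) and Col4a2 (chr8:11312805-11449287) are read in opposite directions from a shared start region and encode the partners of the common type IV molecule. Their annotated spans overlap by 22 bases, shown here from RefSeq because they hold the start of both genes (chr8:11312805-11312826, GRCm38.p6, plus strand), with the first base of each transcript in capitals.
Col4a1 and Col4a2: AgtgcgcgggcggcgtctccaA
Col4a1 went from 292, 368 and 376 to 906, 751 and 517 CPM (1.07 ± 0.32 SE, FDR 0.00761). Col4a2 went from 195, 239 and 252 to 579, 506 and 374 CPM (1.09 ± 0.36 SE, FDR 0.0154). The genotypes did not overlap for either gene. For Col4a2 the call was lost without WT replicate 1 (0.98, FDR 0.0647) or slow/slow replicate 1 (0.94, FDR 0.0624). Col4a5 and Col4a6, a pair read outward from starts 1308 bases apart on the X chromosome, did not pass, at -0.36 ± 0.29 and 0.43 ± 0.31. Col15a1, a multiplexin of the outer face of basement membranes, was higher (2.67, 3.03 and 2.89 against 6.09, 4.52 and 6.58 CPM, 1.00 ± 0.25 SE, FDR 0.00213). Its relative Col18a1 stood at 160.2, 209 and 238 and 194, 196 and 196 CPM (-0.05 ± 0.15 SE, FDR 0.802), and the sign of that change turned under upper-quartile scaling, in a fit of these groups alone and without WT replicate 3.

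Of the 8 FACIT chains 6 were higher in slow/slow neurons. All 3 chains of type IX collagen, which decorates type II fibrils, were among them. Col9a1 rose from 1.46, 1.38 and 1.25 to 4.84, 4.58 and 3.97 CPM (1.71 ± 0.27 SE, FDR 3.04e-05) and Col9a2 from 2.49, 3.27 and 2.97 to 6.54, 6.42 and 6.77 CPM (1.17 ± 0.39 SE, FDR 0.0166). Col9a3 changed by 0.55, and the call on Col9a2 was lost without WT replicate 1 (1.06, FDR 0.0656). Col12a1, Col14a1 and Col16a1, chains of tendon, skin and vessel walls, changed by 1.07, 0.72 and 0.77. Col23a1, a transmembrane chain, changed by 2.00, at 4.67, 5.46 and 6.09 against 21.9, 21 and 21.9 CPM.

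Only 4 of the 36 genes were lower in slow/slow neurons. Col8a2 (chr4:126286793-126314330) stood at 36.9, 40.2 and 41.7 CPM in WT and 7.00, 6.07 and 6.69 CPM in slow/slow libraries, a log2 change of -2.59 ± 0.22 (SE, FDR 9.16e-09). Col22a1, a FACIT chain of muscle-tendon junctions, went from 68.7, 83 and 82.5 to 21.6, 23.6 and 21.3 CPM (-1.82 ± 0.16 SE, FDR 1.36e-08). Neither overlapped between genotypes. Col17a1, the transmembrane chain of hemidesmosomes, changed by -0.99 ± 0.25 (SE, FDR 0.00249) from a level under 1 CPM in both genotypes, and Col11a1 was lower as given above.

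Markers of other cells moved alongside. Of 6 vascular endothelial genes, all present in the table, the summed level was 11.3 to 14.3 CPM in WT and 111 to 144 CPM in slow/slow neurons. Cdh5, the cadherin of endothelial junctions, went from 2.80 to 77.3 CPM on average. Of 10 mesenchymal fibroblast genes the sums overlapped (193.9 to 271 and 231 to 271 CPM) while single genes moved in opposite directions. Lum, Pdgfrb and Pdgfra went from 0.729 to 37.7, from 7.00 to 46.5 and from 9.72 to 44.8 CPM, and the smooth muscle genes Acta2 and Tagln from 52.3 to 12.2 and from 101 to 26.1 CPM. The 5 neural crest and Schwann genes summed to 25.7 to 30.2 CPM in WT and 60.6 to 71.4 CPM in slow/slow neurons, and the 6 neuronal genes to 3174 to 3483 and 2380 to 2438 CPM. The 6 chondrocyte and notochord genes summed to 75.6 to 96.8 and 9.15 to 11.1 CPM, the 3 neural progenitor genes to 347 to 419.9 and 639.8 to 718 CPM, and the 10 endoderm genes to 63.2 to 75.3 and 78 to 107 CPM. The first of these differences lay in the notochord genes T (76.6 against 7.65 CPM on average) and Noto (6.79 against 0.41 CPM). The cartilage genes Acan, Matn1, Matn3 and Comp stood under 1 CPM on average in both genotypes. Among the endoderm genes Foxa2 went the other way (42.7 against 21.2 CPM). No list had a gene at 0 in every neuron library of a genotype. The part of these cells in the collagen differences was not tested.

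In NPCs 3 of 5 type VI chains and most of the FACIT and transmembrane chains were lower in slow/slow cells. Col6a1 stood at 19.8, 19.6 and 18.8 CPM in WT and 3.74, 3.25 and 3.87 CPM in slow/slow libraries (-2.42 ± 0.34 SE, FDR 6.59e-06), and Col6a2 at 20.6, 19.9 and 19.7 and 7.67, 6.94 and 6.78 CPM (-1.49 ± 0.23 SE, FDR 2.37e-05). These are the genes that were higher in slow/slow neurons. Col20a1, a FACIT chain, fell from 10.2, 11.8 and 8.98 to 1.57, 1.60 and 1.01 CPM (-2.88 ± 0.56 SE, FDR 2.35e-04). Col13a1 went from 12.4, 11.9 and 11.9 to 2.28, 1.36 and 1.48 CPM (-2.81 ± 0.20 SE, FDR 1.26e-09) and Col9a2 from 66, 71.1 and 63.4 to 12, 9.67 and 9.29 CPM (-2.69 ± 0.39 SE, FDR 9.67e-06). None of these 5 genes overlapped between genotypes. By class, 5 of 8 FACIT, 3 of 4 transmembrane and 4 of 10 fibrillar chains were lower. Col1a1 was among the fibrillar chains that fell (-0.96), while its partner Col1a2, at 29.7, 24.9 and 24 and 9.86, 9.88 and 10.1 CPM, did not pass (-1.40 ± 0.79 SE, FDR 0.141) and passed in a fit of the NPC groups alone (FDR 2.96e-09).

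The 5 genes that were higher in slow/slow NPCs were Col2a1, Col4a6, Col8a2, Col12a1 and Col27a1. Col2a1, the fibrillar chain of cartilage and of the early notochord and neural tube, went from 51.5, 54.8 and 51 to 129.6, 137 and 171 CPM (1.48 ± 0.14 SE, FDR 3.80e-08). Col4a6 went from 1.52, 1.40 and 1.17 to 2.67, 2.55 and 3.57 CPM (1.10 ± 0.33 SE, FDR 0.00807) and Col8a2 from 4.14, 4.81 and 4.09 to 7.81, 7.90 and 6.65 CPM (0.78 ± 0.21 SE, FDR 0.00403). The 2 abundant type IV chains gave no detectable difference. Col4a1 stood at 1256, 1468 and 1206 and 1580.2, 1115 and 1249 CPM (0.01 ± 0.31 SE, FDR 0.994), with a sign that turned under 8 alternatives, and Col4a2 changed by 0.11 ± 0.35 (SE, FDR 0.812). Beside these values, 10 endoderm genes, which mark cells rich in type IV collagen, summed to 452 to 547 CPM in WT and 870.4 to 1139 CPM in slow/slow NPCs. The largest were Cubn (147 against 478 CPM on average) and Dab2 (176 against 313 CPM). Sox17, Gata6 and Foxa2 were lower in slow/slow cells (21.4 against 20.6, 43.4 against 29.9 and 9.05 against 8.51 CPM). Of 10 mesenchymal genes (Fap at 0 in both genotypes) the sums were 454 to 507 and 233 to 331 CPM, and of 6 endothelial genes (Emcn at 0) 89.2 to 96.8 and 26.5 to 35 CPM. Tagln and Acta2 were the largest of the former, and Twist1, Prrx1 and Dcn were higher in slow/slow cells. Of the latter, Pecam1 went from 77.8 to 19.5 CPM on average and stood at 117 CPM in WT ESCs. Cdh5 and Kdr were higher in slow/slow NPCs (1.23 against 1.70 and 1.16 against 2.23 CPM). The 6 chondrocyte and notochord genes summed to 24.9 to 27.1 CPM in WT and 10.2 to 11.4 CPM in slow/slow NPCs, the pluripotency genes to 1854 to 1934 and 1104 to 1194 CPM, and the neuronal genes to 85.8 to 93.4 and 162 to 188 CPM. Against the sums of their lists went T (0.470 against 0.830 CPM on average), Pou5f1 (666 against 744 CPM) and Mtap2 (9.03 against 8.88 CPM). The part of these cells in the collagen differences was not tested.

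The PSA-NCAM+ libraries need to be read with their replicate numbers. Replicate 1 stood apart in both genotypes, and at this stage alone every pair of libraries with the same number deviated together. Since deviations were taken from the group mean, replicate 1 alone can set this. Whether the other replicates are paired by number cannot be told. Col1a2 stood at 242, 32.5 and 49.5 CPM in the WT and 451, 27.9 and 21.8 CPM in the slow/slow libraries. Col5a2 stood at 67.2, 12.4 and 16.7 and 158, 8.43 and 5.31 CPM, and Col4a1 at 1908, 996 and 1001 and 2921, 999.5 and 1274 CPM. Each is highest in replicate 1 of its genotype. The 10 mesenchymal genes summed to 706, 735 and 908 CPM in the WT and 1435, 936 and 891 CPM in the slow/slow libraries, and 6 endothelial genes to 63.1 to 71.3 and 17.9 to 30.9 CPM. Of the latter, Pecam1, at 117 CPM in WT ESCs, went from 45.2 to 7.92 CPM on average. Tek (6.74 against 7.53 CPM) and Kdr (6.16 against 6.27 CPM) were not lower in slow/slow cells. Pluripotency genes summed to 1237 to 1588 and 445 to 576 CPM, neural progenitor genes to 199 to 269 and 442 to 537 CPM and neuronal genes to 64.3 to 95.1 and 177 to 341 CPM, each without overlap. The part of these cells was not tested. Col1a2 did not pass with all libraries (log2 change 0.62, FDR 0.503) but was lower without slow/slow replicate 1 (-2.10, FDR 0.0009) and without both replicates 1 (-0.72, FDR 0.000178). It was higher without WT replicate 1 (2.02, FDR 0.04). For Col5a2 the values were 0.82 (FDR 0.381), -2.20 (FDR 0.000257) and -1.09 (FDR 2.28e-05). Within same-numbered pairs the slow/slow to WT ratio of Col1a2 was 1.86, 0.857 and 0.442. The count of genes lower in slow/slow cells was 18 with all libraries, 21 without slow/slow replicate 1 and 24 without both replicates 1, and the count of higher ones was 6 each time. The share of all genes that passed rose as well, from 56.7% to 68.9% and 68%. In a fit of the PSA-NCAM+ groups alone 10 of the 36 genes and 23.3% of all genes passed.

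**Figure D4:**
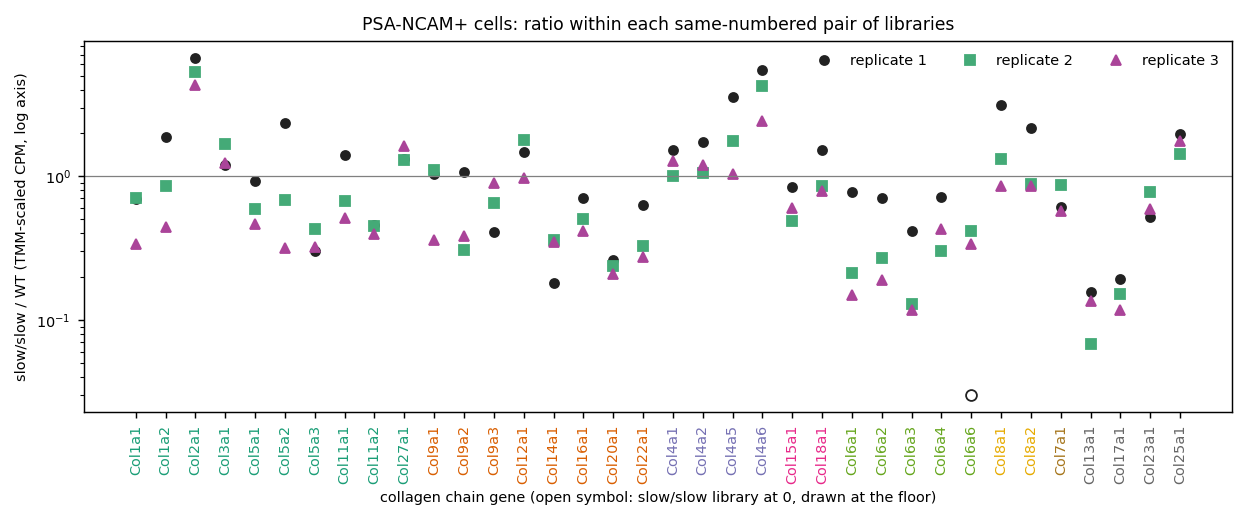
Ratio of slow/slow to WT level within each pair of PSA-NCAM+ libraries that share a replicate number, for the 36 genes in order of class, on a log axis. For Col1a2, Col5a2, Col9a2 and the type VI chains but Col6a6 the ratio of replicate 1 lies above those of replicates 2 and 3. Col13a1 and Col17a1 lie below 1 and Col2a1 and Col4a6 above 1 in all 3 pairs.

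Named genes that passed at this stage were as follows. All 5 type VI chains were lower in slow/slow PSA-NCAM+ cells, of which Col6a6 was so at -1.45 (FDR 0.0419) and lost the call without slow/slow replicate 1 (-0.99, FDR 0.0867). Col6a1 (-1.54) lost it in a fit of the PSA-NCAM+ groups alone (-1.54, FDR 0.0772). Col6a3 stood at 0.44, 1.32 and 1.40 CPM in WT and 0.184, 0.171 and 0.164 CPM in slow/slow libraries (-2.58 ± 0.34 SE, FDR 5.49e-06). Col13a1 went from 7.99, 10.9 and 9.07 to 1.25, 0.746 and 1.22 CPM (-3.13 ± 0.20 SE, FDR 2.98e-10) and Col17a1 from 2.12, 2.74 and 2.79 to 0.408, 0.416 and 0.328 CPM (-2.73 ± 0.21 SE, FDR 3.35e-09). Col2a1 was higher, at 62, 61.7 and 81.7 against 414, 326 and 349 CPM (2.41 ± 0.14 SE, FDR 6.97e-11). The X-linked pair also stood higher, Col4a6 at 7.33, 3.91 and 5.59 against 39.9, 16.6 and 13.5 CPM (2.05 ± 0.32 SE, FDR 1.77e-05) and Col4a5 at 44.5, 31.5 and 42.9 against 159, 55 and 44.7 CPM (1.12 ± 0.29 SE, FDR 0.00291). For Col4a5 the change was 0.35 without slow/slow replicate 1 and 0.42 without both replicates 1, each with an FDR under 0.05, and its call was lost in a fit of the PSA-NCAM+ groups alone (1.11, FDR 0.146). Col4a1 and Col4a2 did not pass (0.41 and 0.53). Both passed as higher without WT replicate 1 (0.79 and 1.00), and their sign turned without slow/slow replicate 1 (-0.17 and -0.28). Col1a1 was lower (-0.81 ± 0.28 SE, FDR 0.0202), a call that was lost without WT replicate 1 or 3 or slow/slow replicate 2 or 3, where it lay between -0.51 and -0.75.

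In ESCs 19 to 20 of the 36 genes reached 1 CPM in a WT library and 13 to 14 in a slow/slow library. The 10 mesenchymal genes, of which Dcn and Fap were at 0 in both genotypes, summed to 40.4 to 43.7 and 16.5 to 20.2 CPM. Pdgfrb made up most of both sums (34.87 against 12.97 CPM on average), while Prrx1, Postn and Acta2 were higher in slow/slow cells. Other lists also differed without overlap. The 5 astrocyte and radial glia genes summed to 49.5 to 54.7 and 18.7 to 20.6 CPM, mostly Aldh1l1 (47.5 against 16.53 CPM on average), while Gfap and Fabp7 were higher. The 10 endoderm genes summed to 19.8 to 20.4 and 13.6 to 15.3 CPM. Dab2 went from 6.43 to 1.68 CPM on average, while Gata4 (8.53 against 9.82 CPM) and Cubn (0.507 against 0.687 CPM) were higher in slow/slow cells. The 6 neuronal genes were higher, at 162 to 184 and 200 to 223 CPM. The part of these genes was not tested. Col9a3 stood at 4.83, 4.25 and 5.19 CPM in WT and 1.04, 1.02 and 0.929 CPM in slow/slow libraries (-2.25 ± 0.18 SE, FDR 6.22e-09). Its partner Col9a2 stood at 32.2, 31.2 and 36.4 and 62.6, 55.7 and 56.6 CPM without overlap and did not pass (0.81 ± 0.37 SE, FDR 0.0847), but did in a fit of the ESC groups alone (FDR 4.27e-07). Col20a1 was lower (2.98, 3.47 and 2.91 against 0.588, 0.409 and 0.805 CPM, -2.40 ± 0.61 SE, FDR 0.00364), as were Col1a1 (-1.55), Col5a3 (-1.48) and Col2a1 (-0.95). Col6a3 had 22, 15 and 22 counts in WT libraries and 0 in all 3 slow/slow libraries, so that it was at least 5.31-fold lower against a floor of 3 counts per library. The median over the 36 genes, -0.46, does not depend on this bound, since Col6a3 lies below the median either way. Col4a6 had 8, 4 and 5 against 2, 0 and 0 counts, a ratio of 6.96 with an exact 95% interval of 1.65 to 62.1, and its call (FDR 0.0464) was lost without any 1 library but slow/slow replicate 1. The higher genes were Col12a1, Col3a1 and Col11a1. Col12a1 and Col3a1 lay under 1 CPM in every library (2.06 ± 0.58 SE, FDR 0.00764 and 1.52 ± 0.41 SE, FDR 0.00571). Col11a1 went from 8.26, 6.86 and 6.47 to 11.4, 9.29 and 10.5 CPM (0.53 ± 0.19 SE, FDR 0.0284), and its call was lost without WT replicate 2 or 3 or slow/slow replicate 1 or 3, with changes of 0.47 to 0.53. That of Col9a1 (-1.20, FDR 0.0496) was lost without any 1 library but slow/slow replicate 1. Col5a2, at 1.60, 1.55 and 1.53 and 0.294, 0.164 and 0.155 CPM, did not pass (FDR 0.0658), but did with DESeq2 (FDR 0.00366).

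Whether the genotype effect differed between stages was tested as an interaction. Between NPCs and neurons it differed for 23 of the 36 genes, where 55.1% of all genes passed. It was shifted upward in neurons for 20 of these and downward for 3, beside 24.7% and 30.4% of all genes. Col6a6, one of the 20, was taken in through the slow/slow neurons alone, so that its shift is set by the rule. The largest upward shifts among the others were those of Col6a2 (4.73 ± 0.34 SE, FDR 1.29e-09), Col1a2 (4.16 ± 1.14 SE, FDR 0.00436) and Col6a1 (4.15 ± 0.47 SE, FDR 4.71e-07). Col8a2, Col2a1 and Col22a1 shifted downward. Between ESCs and NPCs the effect differed for 10 genes, 5 in each direction, where 24.6% of all genes passed, 13.6% upward and 11% downward. Between NPCs and PSA-NCAM+ cells it differed for 6, 3 in each direction, where 14.6% passed, 7.52% upward and 7.04% downward. The 3 tests share the NPC libraries.

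Other genes of the collagen pathway were read from the same test. Of 38 genes of collagen biosynthesis 5 were higher and 10 lower in slow/slow ESCs. NPCs gave 12 and 13, PSA-NCAM+ cells 11 and 10, and neurons 10 and 10. The shares that passed were 39.5%, 65.8%, 55.3% and 52.6%, beside 40.4%, 56.7%, 56.7% and 51.9% of all genes. The largest changes in it were of Tll1, a protease that trims procollagen, at the first 3 stages (1.90, 2.99 and 3.40). Its level in NPCs was 0.936, 0.845 and 0.66 CPM in WT and 5.84, 6.44 and 7.15 CPM in slow/slow libraries. In neurons it was P4ha3, a prolyl hydroxylase subunit, at 45.9, 50.7 and 48.5 against 9.90, 12.7 and 12.7 CPM (-2.04 ± 0.22 SE, FDR 2.50e-07). The second-largest, in the order of the stages, were Pcolce2, which aids procollagen trimming (1.87), Mia2 (2.93), Adamts14, a procollagen N-proteinase (-1.71), and Tll2 (1.67). Mia2, listed under chaperones and export, did not reach 1 CPM in 3 or more libraries.

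Of 10 collagen receptor genes tested 1 was higher and 1 lower in slow/slow ESCs. NPCs gave 2 and 4, PSA-NCAM+ cells 1 and 6, and neurons 6 and 1. These are 20%, 60%, 70% and 70% of the genes tested, beside 40.4%, 56.7%, 56.7% and 51.9% of all genes. The split of all genes by direction is given above. Itga11 and Itga2, integrin subunits that bind fibrillar collagen, led this list in both NPCs and neurons. Itga11 changed by -2.40 ± 0.83 (SE, FDR 0.0189) in NPCs, where it stood at 2.10, 1.96 and 1.86 and 0.349, 0.31 and 0.468 CPM. In neurons it changed by 3.20 ± 0.76 (SE, FDR 0.00144), at 1.21, 1.38 and 1.10 and 11.5, 11.3 and 11.2 CPM. Itga2 changed by -2.97 and 2.76 at these stages and by -2.23 in PSA-NCAM+ cells. There, Lair1 (-3.28) lay under 0.1 CPM in every library. In ESCs Itga10 changed by -1.14 and Itgb1, the shared beta subunit, by 1.13.

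Of 10 genes of collagen degradation 3 were higher and 3 lower in slow/slow ESCs. NPCs gave 2 and 2, PSA-NCAM+ cells 6 and 2, and neurons 6 and 3. These are 60%, 40%, 80% and 90% of the genes tested, beside 40.4%, 56.7%, 56.7% and 51.9% of all genes. Timp4, an inhibitor of matrix metalloproteinases, was higher in slow/slow NPCs (2.34) and PSA-NCAM+ cells (3.72) and lower in neurons (8.76, 11.7 and 7.97 against 0.76, 0.722 and 0.713 CPM, -3.69 ± 0.43 SE, FDR 2.53e-06). Mmp16 changed by 1.44 in ESCs and 3.54 in NPCs, Ctsk by -2.33 in ESCs, Mmp9 by -2.52 in PSA-NCAM+ cells and Timp1 by 1.98 in neurons. Of 16 partners in the basement membrane 0 were higher and 6, 10 and 7 lower in ESCs, NPCs and PSA-NCAM+ cells. In neurons 4 were higher and 1 lower. The shares that passed were 37.5%, 62.5%, 43.8% and 31.2%, beside 40.4%, 56.7%, 56.7% and 51.9% of all genes. Lama3, the laminin chain of epithelial anchorage, led at the first 3 stages (-2.20, -3.20 and -2.83). Lamc3 changed by -2.74 in NPCs and -2.58 at the PSA-NCAM+ stage. Its change in neurons was 5 ± 0.43 (SE, FDR 1.19e-08), where it went from 0.292, 0.401 and 0.193 to 8.68, 8.91 and 10.2 CPM. Lama4, a laminin chain of vessels, went from 2.15, 2.09 and 2.13 to 21.7, 17.7 and 18.9 CPM in neurons (3.19 ± 0.20 SE, FDR 2.02e-10), and Lama2 changed by -2.07 in ESCs.

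Splicing of the collagen genes was compared by percent spliced in (PSI), the share of junction reads that include an exon or keep an intron. Of 236 exons of collagen genes 6, 14, 55 and 37 had enough reads in all 6 libraries of ESCs, NPCs, PSA-NCAM+ cells and neurons. None was called at a difference over 10 points with a posterior over 0.95, where 0.809%, 2.93%, 0.966% and 3.55% of all exons tested were (0.372%, 0.801%, 0.238% and 1.99% as more included in slow/slow cells and 0.437%, 2.12%, 0.727% and 1.56% as less). With limma 0 were called as well, though 1 exon in NPCs had an FDR under 0.05 at a difference under 10 points, and 0, 3, 6 and 3 had an unadjusted p under 0.05. A 45-base exon of Col16a1 (mm9 chr4:129758679-129758723) was at 96.3, 100.0 and 96.6% in WT and 100.0, 75.6 and 75.0% in slow/slow PSA-NCAM+ cells, and was called without slow/slow replicate 1 (-22.3 points). The median inclusion of the tested collagen exons was 98.1 to 99.9% in WT cells.

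Introns gave a different picture at a single gene. Of 1852 introns of collagen genes 77, 213, 557 and 403 could be tested at the 4 stages, and 0, 5, 4 and 0 were called, where 0.0541%, 0.321%, 0.0838% and 0.26% of all introns were. As more retained in slow/slow cells these were 0.0416%, 0.206%, 0.0661% and 0.155%, and as less retained 0.0125%, 0.115%, 0.0177% and 0.105%. Every collagen intron called was in Col2a1 and was less retained in slow/slow cells. Retention here means the share of junction reads that are unspliced, from whatever transcript they come. With limma 0, 5, 0 and 0 collagen introns were called, where no intron of any gene was called in PSA-NCAM+ cells. With the replicate number in the model as a block, 4 were called in PSA-NCAM+ cells. The called introns are 11 to 15 of a 54-exon transcript, numbered by their lengths, and span mm9 chr15:97824502-97826533. In WT NPCs their mean retention was 50.2, 51.4 and 49.7% in the 3 libraries, and in slow/slow NPCs it was 6.61, 6.07 and 3.2%. In PSA-NCAM+ cells it was 18.8, 16.3 and 12.8% against 0.970, 0.528 and 0.636%. The genotypes did not overlap at either stage. In neurons, where no intron was called, the values were 1.6, 1.19 and 0.792% in WT and 2.87, 5.25 and 4.2% in slow/slow cells, so that the order of the genotypes was the opposite. The ESC values rest on few reads.

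**Figure D5:**
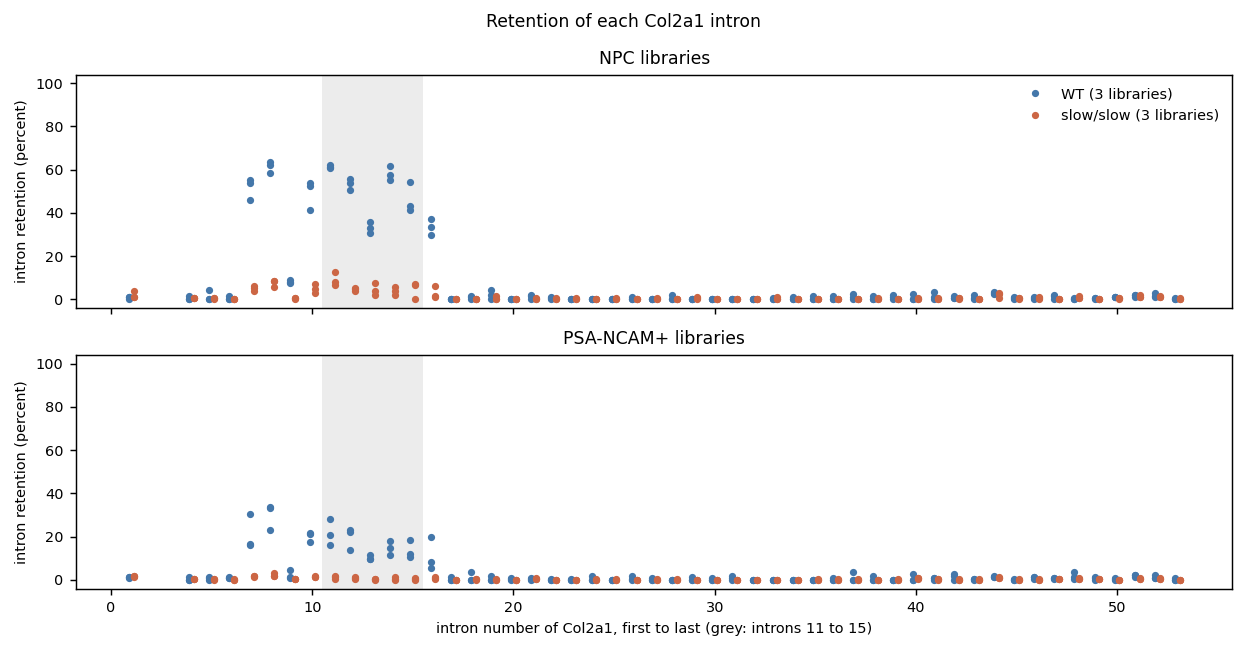
Retention of each intron of Col2a1 in percent, by intron number, in the 3 WT and 3 slow/slow libraries of NPCs and of PSA-NCAM+ cells. The grey band marks introns 11 to 15. In WT NPCs introns 7 to 16 other than intron 9 lie above 25% in every library, and introns 17 to 53 lie near 0.

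The stretch with many unspliced reads was longer than the called introns. In WT NPCs 9 introns between 7 and 16 (mm9 chr15:97821820-97828729) exceeded 25% in every library, a stretch that was picked after its values were seen. Intron 9 lay at 7.46 to 9.09%, and the 41 other introns listed averaged 0.601 to 0.824%. Introns 7, 8, 10 and 16 were not tested, since their junctions were unbalanced. Intron 7 had 0 unspliced reads at its upstream junction and 185 at its downstream junction in the WT NPC libraries together, and intron 8 had 242 and 12. Intron 10 had 20 and 172, and intron 16 had 77 and 3. Whether the unspliced reads come from Col2a1 transcripts that keep these introns or from another transcript was not tested, and junction reads cannot settle it. The depth-scaled reads show both sides of the ratio. Unspliced junction reads per intron, scaled to CPM, fell from 0.469, 0.557 and 0.501 in WT to 0.0957, 0.0944 and 0.0527 in slow/slow NPCs over introns 11 to 15, while spliced reads went from 0.504, 0.532 and 0.505 to 1.38, 1.45 and 1.86. Thus the unspliced reads were lower in slow/slow NPCs although the gene's count was higher. In PSA-NCAM+ cells unspliced reads were at 0.129, 0.128 and 0.123 against 0.0386, 0.0175 and 0.0237. How far reads within these introns add to the deposited count of Col2a1 was not tested.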

How the data were processed

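Poly(A)+ libraries made with a stranded kit had been read in pairs, mapped to mm9 and processed with vast-tools (version 1 per the study's methods) after demultiplexing with bcl2fastq 2.17.1.14. As deposited, the expression table holds raw counts for each gene in each library and, by the authors, the mean RPKM over the replicates of a group, and percent spliced in (PSI) with junction reads for each event and library. Columns with the authors' own log2 fold changes and FDR values, and their table of called splicing events, were not used. Each of the 24 libraries was placed by its labels, and 0 columns of per-library values were left out.

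Counts were tested with edgeR 4.0.16 in R 4.3.3 (filterByExpr, TMM, quasi-likelihood F test, 1 model of 8 groups, 16 residual degrees of freedom, Benjamini-Hochberg over 16627 genes, FDR under 0.05). Levels are TMM-scaled CPM unless a summed CPM is given. On simulated data for NPCs with 16627 genes, 85% of 2-fold and 24% of 1.5-fold changes were recovered. Splicing events needed at least 15 reads for introns or sufficient coverage for exons, balanced junctions, a PSI difference over 10 points and a pooled beta posterior over 0.95. Alternatives were DESeq2 1.42.0, limma 3.58.1 on the empirical logit, other scalings and filters, the replicate number as a block, the groups compared alone, and each library left out. Leaving out both PSA-NCAM+ replicates 1 was added after the levels were seen. Same-numbered PSA-NCAM+ libraries of the 2 genotypes deviated together (correlations of 0.587, 0.599 and 0.460, each over 0.1). Deviations were taken from the mean of each group, and replicate 1 stood apart in both genotypes. These correlations therefore cannot show that the other replicates are paired by number. Nothing in the labels says that replicates of any stage are paired.

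The collagen genes and the marker and pathway lists were chosen with earlier results of these data known. Named are, for each stage, the 3 genes with the largest change in each direction among those called, the 3 with the highest RPKM in WT cells, the gene pairs that share a molecule or a locus, and every intron called. In the pathway lists the 2 largest called changes at each stage are named. Others were named after their values were seen. Gene coordinates are from GENCODE (GRCm38) and splicing coordinates are in mm9, and the builds were not combined. Counting intervals and floors cover counting error only.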

Additional observations from a re-analysis of the deposited data

Results flagged for a closer look

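The genotype effect (log2 of slow/slow over WT) of a collagen gene is listed here where it differed between 2 stages by the interaction test at an FDR under 0.05. The value is the effect at the later stage minus that at the earlier one. From ESCs to NPCs it moved upward for Col6a3 (5.46), Col4a6 (3.73), Col2a1 (2.42), Col9a3 (1.46) and Col27a1 (0.639). It moved downward for Col9a2 (-3.5), Col13a1 (-2.23), Col3a1 (-1.26), Col11a1 (-0.817) and Col22a1 (-0.693). Of these, Col6a3 and Col4a6 rest on ESC libraries with 0 counts, so that the sizes of their shifts depend on the fit. When a library was left out in turn, the call was kept in 4 of 12 fits for Col3a1 and Col22a1, 6 for Col11a1 and 11 for Col4a6. That of Col3a1 was also lost under the replicate block.

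From NPCs to PSA-NCAM+ cells it moved upward for Col8a1 (2.22), Col9a2 (2.06) and Col2a1 (0.931), and downward for Col14a1 (-2.28), Col6a4 (-1.1) and Col17a1 (-1.07). Without both PSA-NCAM+ replicates 1 there were 14 such genes in place of 6, while the share of all genes called went from 14.6% to 31.1%. In a fit of the NPC and PSA-NCAM+ groups alone Col8a1, Col9a2, Col14a1, Col6a4 and Col17a1 lost the call. That of Col6a4 was also lost in 6 of the 12 fits that left out a library.

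From NPCs to neurons it moved upward for Col6a6 (6.09), Col6a2 (4.73), Col1a2 (4.16), Col6a1 (4.15), Col9a2 (3.87), Col20a1 (3.23), Col5a2 (3.05), Col23a1 (2.87), Col13a1 (2.83), Col1a1 (2.71), Col6a3 (2.25), Col5a3 (1.92), Col16a1 (1.78), Col15a1 (1.61), Col8a1 (1.55), Col9a1 (1.38), Col9a3 (1.35), Col11a2 (1.24), Col4a1 (1.06) and Col3a1 (0.8). It moved downward for Col8a2 (-3.37), Col2a1 (-1.79) and Col22a1 (-0.841). Col6a6 was taken in through the slow/slow neuron libraries alone, so that its shift is set by the choice of genes. When a library was left out in turn, the call was kept in 2 of 12 fits for Col4a1, 1 for Col8a1, 4 for Col5a2, 8 for Col11a2 and 11 for Col9a1.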

How the results depend on the processing

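Of 117 values of single genes, recomputed 1661 times in all, 1495 kept their direction and their side of the threshold, 110 lost the call, 32 gained it and 24 changed sign. The sign of Col4a1 in NPCs turned with DESeq2's test (-0.0275) and size factors (-0.0275), upper-quartile scaling (-0.0377), the replicate block (-0.0157) and the NPC groups alone (-0.0164), and ran from -0.138 (without slow/slow replicate 1) to 0.121 when a library was left out. In NPCs it also turned when a library was left out for Col4a2 (-0.0441 without slow/slow replicate 1, to 0.231), Col9a1 (-0.0405 without slow/slow replicate 1, to 0.632) and Col4a5 (-0.013 without slow/slow replicate 3, to 0.15). For Col18a1 in neurons it turned with upper-quartile scaling (0.0926) and the neuron groups alone (0.0233), and ran from -0.204 to 0.075 (without WT replicate 3) when a library was left out. In PSA-NCAM+ cells these ranges were -0.216 to 0.203 for Col18a1, and, each from without slow/slow replicate 1 to without WT replicate 1, -2.10 to 2.02 for Col1a2, -2.20 to 1.96 for Col5a2, -0.172 to 0.795 for Col4a1 and -0.275 to 0.999 for Col4a2. Without both replicates 1 Col1a2 was at -0.722 and Col5a2 at -1.09. Fitted on the groups compared alone, the genes called numbered 10 in place of 24 between genotypes in PSA-NCAM+ cells (all genes 23.3% in place of 56.7%), 12 in place of 23 from slow/slow NPCs to PSA-NCAM+ cells (16.6% in place of 42.3%), 18 in place of 10 for the interaction of ESCs and NPCs (48.2% in place of 24.6%), and 1 in place of 6 for that of NPCs and PSA-NCAM+ cells (4.2% in place of 14.6%). The last count ran from 3 to 9 when a library was left out (3 without slow/slow NPC replicate 1) and was 14 without both PSA-NCAM+ replicates 1. The called exons in PSA-NCAM+ cells ran from 0 to 1 when a library was left out, and the 4 called introns became 2 at a minimum of 15 points and 0 with limma. Between genotypes at the other stages, fits of the groups alone called a larger share of all genes. It was 62.4% in ESCs, 75.8% in NPCs and 76.3% in neurons, in place of 40.4%, 56.7% and 51.9%. The cause was not tested. With the replicate number as a block, 24 genes were called in PSA-NCAM+ cells (6 higher, 18 lower), with no call changed. At the other stages not every same-numbered pair correlated above 0.1 (ESCs 0.428, -0.229 and -0.277, NPCs -0.168, -0.188 and -0.046, neurons -0.108, -0.00336 and -0.0503), and the block gave 17, 22 and 23 called genes in place of 17, 21 and 23. Upper-quartile scaling moved the median of all genes by -0.27 from WT NPCs to neurons, where 15 collagen genes then rose and 18 fell in place of 17 and 15, by 0.14 between genotypes in neurons and by 0.18 for the interaction of NPCs and neurons, and by less than 0.1 elsewhere. Depth limits most the genes under 1 CPM, which in slow/slow ESC libraries were more than those over it.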
